A study of Arabidopsis thaliana with 6 samples.

Results

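The genes described here encode the enzymes and carriers by which *Arabidopsis* takes storage oil apart. They comprise 31 loci, out of 24509 transcripts that had a read in any library. The loci were chosen by name and function and not by a measured value, though earlier results of these data were known. All 31 had reads. RNA-Seq libraries were made from embryos dissected out of seeds 8 d after pollination, with 25 to 30 embryos in each library. In 3 libraries the embryos came from plants labelled homozygous for *wrinkled1-1* (*atwri1-1*), and in the other 3 from wild-type (WT) plants, all of the Col-0 ecotype and grown in the same chamber conditions. WRINKLED1 (WRI1) is an AP2-family transcription factor best known for switching on fatty acid synthesis in maturing seeds, and no treatment other than the genotype separated the groups.

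Triacylglycerol in oil bodies is opened by lipases, and the released fatty acids enter the peroxisome through an ABC transporter and are activated there to acyl-CoA. In each turn of beta-oxidation an acyl-CoA oxidase introduces a double bond, a multifunctional protein adds water and oxidizes the product, and a thiolase releases acetyl-CoA. Peroxisomal citrate synthase and malate dehydrogenase carry away carbon and reducing power. Isocitrate lyase and malate synthase, the enzymes particular to the glyoxylate cycle, together with phosphoenolpyruvate carboxykinase, turn acetyl-CoA towards sugar. The pathway is best known from oilseed germination, when it feeds the seedling, but its genes are also transcribed in developing embryos. Peroxisomal enzymes are imported after translation by receptors that read a signal at the end of the protein (PTS1) or near its beginning (PTS2).

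The *WRI1* transcript itself was higher in the libraries labelled *atwri1-1*, at 1256, 1100 and 1042 TMM-scaled CPM (reads counted per 1000000 reads of tested transcripts), against 186, 148 and 166 CPM in WT. Its level therefore does not check the genotype labels, and the mutant libraries are named by their labels throughout. The libraries held between 8510887 and 18933870 reads on transcripts, of which the 31 genes took between 0.177% and 0.210%, and 3 reads corresponded to between 0.148 and 0.338 CPM. A row naming no transcript took 86.6% of all counts in *atwri1-1* replicate 1 and between 39.6% and 45.0% in the other 5 libraries. All 6 embryo markers examined had reads in every library, and their summed level was between 3749 and 6529 CPM in libraries labelled *atwri1-1* and between 3313 and 5040 CPM in WT. Of these markers 4 had a positive fold change with an unadjusted edgeR p under 0.05, namely *LEC1*, *LEC2*, *ABI3* and *OLE1* (log2 fold changes 0.80, 1.03, 0.31 and 0.70), the last being an oil body protein gene. The markers *FUS3* (log2 fold change 0.18) and *CRA1* (-0.58) did not reach that p. Levels of *CRA1*, a storage protein gene, were between 249 and 2270 CPM in libraries labelled *atwri1-1* and between 1068 and 2114 CPM in WT. Of the 4, *LEC2*, an embryo identity regulator, alone was called higher (edgeR adjusted p = 0.0129), a call lost without *atwri1-1* replicate 1 (edgeR adjusted p = 0.0665), without *atwri1-1* replicate 2 (0.0683), or without WT replicate 1, where the log2 fold change was 0.90. The 7 endosperm markers summed to between 77.0 and 266 CPM in libraries labelled *atwri1-1* and between 73.2 and 396 CPM in WT, and the 9 seed coat markers to between 416 and 623 CPM in libraries labelled *atwri1-1* and between 407 and 487 CPM in WT. WT replicate 1 had the highest endosperm sum of the 6 libraries. The endosperm genes *AGL62* and *FWA*, named after their values were seen, were called higher (log2 fold changes 1.89 and 2.46) at means of 1.71 and 1.90 CPM in libraries labelled *atwri1-1* and 0.449 and 0.334 CPM in WT. DESeq2 called both and also *ZOU*, an endosperm regulator that averaged 17.6 ± 10.9 CPM in libraries labelled *atwri1-1* and 7.08 ± 1.24 CPM in WT (log2 fold change 1.31, edgeR adjusted p = 0.112 and not called). Neither *AGL62* nor *FWA* was called in limma-voom, *FWA* alone was called under the replicate block, and at least 1 of the 2 calls was lost in each fit that left out a library. The most abundant endosperm marker, *EPR1*, averaged 102 ± 60.9 CPM in libraries labelled *atwri1-1* and 155 ± 165 CPM in WT (log2 fold change -0.62, edgeR adjusted p = 0.673). *FIS2* and *ALE1* were not called either (log2 fold changes 0.11 and 0.47). None of the 7 seed coat genes tested was called in edgeR, DESeq2 or limma-voom, or reached an unadjusted edgeR p under 0.05, and the most abundant of them, *ARA12*, had a log2 fold change of 0.16. The part of other tissues in the results below was not tested, and in whole embryos fewer cells of a type cannot be told apart from less RNA per cell.

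Genes at 3 steps of the pathway were called lower, and most of its genes had fold changes close to 0. A gene was called when its Benjamini-Hochberg adjusted p over the 18241 genes tested by edgeR was at most 0.05 and its log2 fold change (*atwri1-1* minus WT) was beyond 1 in either direction. Of the 31 genes, 30 passed the low-count filter and were tested, and 5 of these were called lower. These were the acyl-CoA oxidase genes *ACX4*, *ACX5* and *ACX6*, the malate dehydrogenase gene *PMDH2* and the malate synthase gene *MLS*. Only *ACX4* and *ACX5* were called in all 6 fits that left out a library. *ACX6* was called in 5 of these fits, *PMDH2* in 4 and *MLS* in 1. The falls outside the oxidases thus rested on single genes whose calls depended on the libraries used. Of all genes tested, 5.31% were called lower. No member was called higher, where 1.08% of all genes tested were, in edgeR, DESeq2 or limma-voom, and 1 member with a positive fold change (*PCK1*) had an unadjusted edgeR p under 0.05.

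With the fold minimum set aside, 7 members had an adjusted p of at most 0.05, against 10.2% of all genes tested, the additions being *ACX2* and the import receptor gene *PEX5*. In 11 members the 3 values of one genotype did not overlap the 3 of the other, against 35.0% of all genes tested. The log2 fold change was below 0 in 20 members and above 0 in 10, and 18 lay within 0.5 of 0. Its median over the tested members was -0.11, beside -0.01 over all genes tested. The summed level of the 31 genes was between 1726 and 1841 CPM in libraries labelled *atwri1-1* and between 2002 and 2179 CPM in WT.

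**Figure D1:**
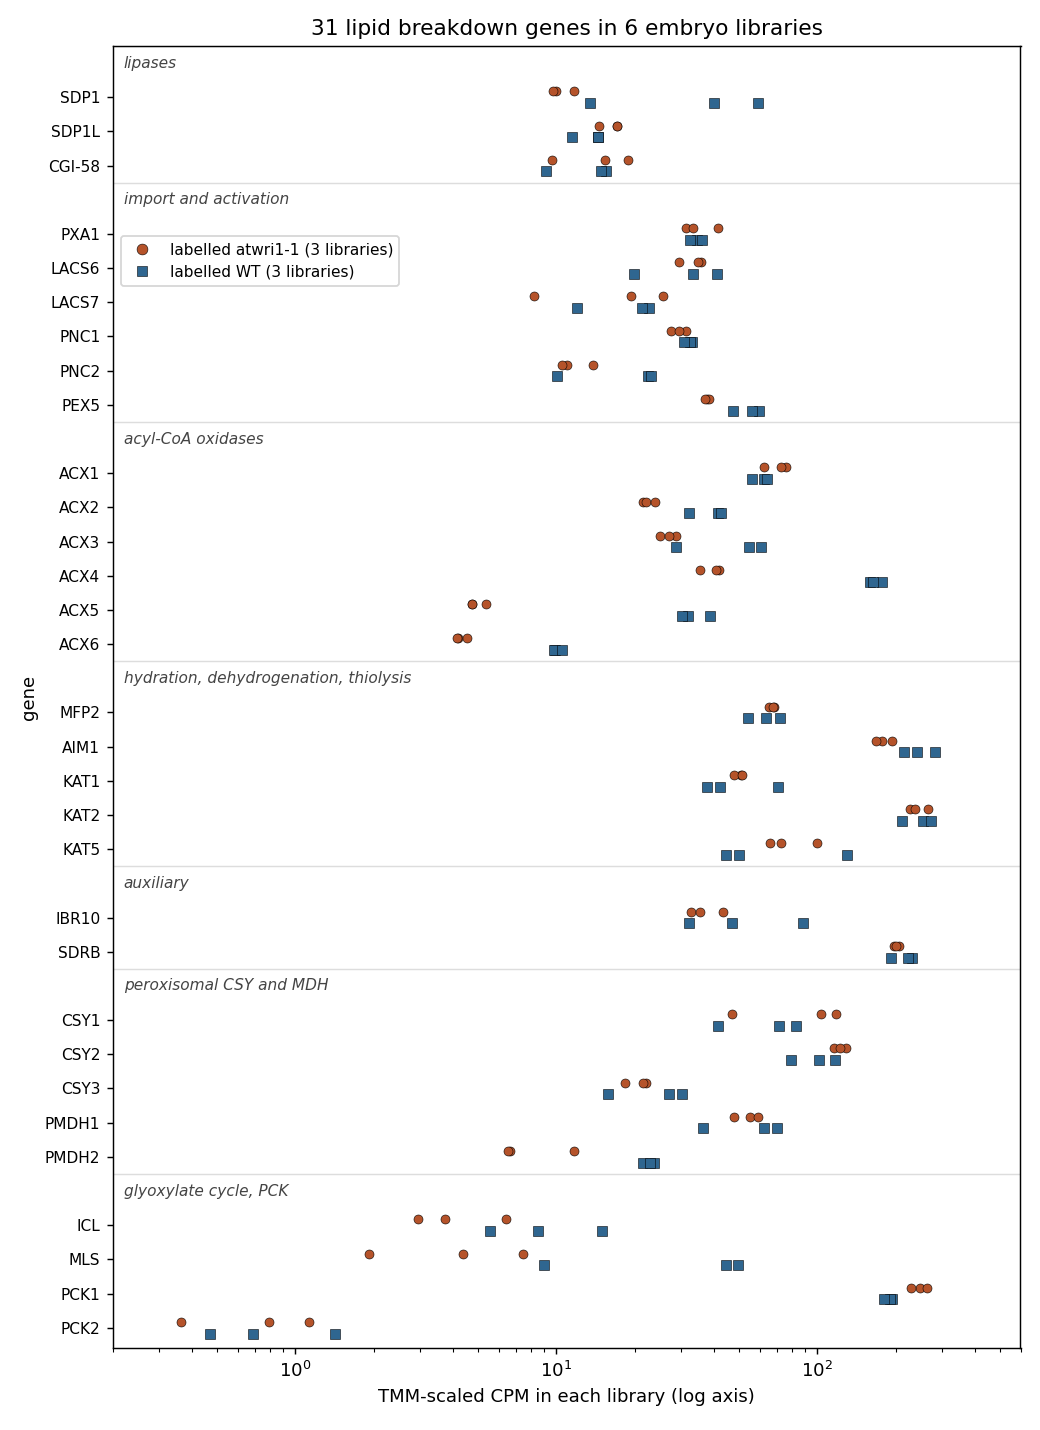
TMM-scaled CPM (horizontal log axis) of each of the 31 genes in the 3 libraries labelled *atwri1-1* (circles) and the 3 WT libraries (squares), grouped by role. *ACX5* and *ACX4* are well separated, 1 WT library lies close to the *atwri1-1* range for *MLS* and *SDP1*, and 20 of the 31 genes overlap between the genotypes.

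WT replicate 1 stood apart from the other WT libraries for several members. In it the levels of *SDP1*, *MLS*, *ACX3* and *ICL* were the lowest of the 3 WT libraries and close to those labelled *atwri1-1*, whereas *KAT5* and *IBR10* were highest there. Without WT replicate 1, 8 members were called lower, the additions being *SDP1*, *ACX3* and *ICL*, and 15 had an adjusted p of at most 0.05. Without *atwri1-1* replicate 2 the number called lower was 3, and without *atwri1-1* replicate 3 it was 2. *ACX4* and *ACX5* were called in every one of the 6 fits that left out a library.

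The acyl-CoA oxidases held the most called genes of any step, 3 of 6, and *ACX2* also had an adjusted p of at most 0.05. These enzymes catalyse the first reaction of each beta-oxidation turn and differ in the chain length they prefer. *ACX4* (AT3G51840, chr3:19225360-19229341 on the minus strand of TAIR10.1), the short-chain oxidase, had 42.0, 35.6 and 40.8 CPM in libraries labelled *atwri1-1* and 176, 159 and 164 CPM in WT. Every WT library was far above every library labelled *atwri1-1*, and the means were 39.4 ± 3.42 CPM in libraries labelled *atwri1-1* and 166 ± 9.02 CPM in WT (SD, n = 3 each), a 4.22-fold lower level (log2 fold change -2.08 ± 0.13 SE, edgeR adjusted p = 2.52e-04).

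*ACX5* (AT2G35690, chr2:14999726-15003073, plus strand), a close relative of *ACX1* that RefSeq describes as involved in jasmonate biosynthesis, showed the largest fall of the oxidases. It had 4.76, 5.38 and 4.74 CPM in libraries labelled *atwri1-1* and 38.6, 32.0 and 30.4 CPM in WT. The groups were well apart, at means of 4.96 ± 0.36 CPM in libraries labelled *atwri1-1* and 33.7 ± 4.38 CPM in WT (SD, n = 3 each), and the level was 6.80-fold lower (log2 fold change -2.76 ± 0.17 SE, edgeR adjusted p = 2.42e-04). *ACX1* itself (AT4G16760), which acts on medium to long chains, had 62.5, 75.8 and 72.5 CPM in libraries labelled *atwri1-1* and 56.2, 62.4 and 64.2 CPM in WT. Its groups overlapped and it was not called (log2 fold change 0.21 ± 0.13 SE, edgeR adjusted p = 0.378). *ACX5* shares 82.6% of its aligned coding bases with *ACX1*, yet 99.2% of its 31-base stretches occur in no other counted transcript, so reads of the pair can be told apart. Per transcript length, the level of *ACX5* relative to *ACX1* was between 0.0703 and 0.0819 in libraries labelled *atwri1-1* and between 0.509 and 0.741 in WT.

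*ACX6* (AT1G06310, chr1:1926652-1930397, plus strand), which RefSeq lists as a putative oxidase, was the least abundant of the family. It had 4.21, 4.54 and 4.17 CPM in libraries labelled *atwri1-1*, from between 37 and 92 reads, and 9.90, 9.82 and 10.5 CPM in WT, from between 111 and 126 reads. The replicates lay close together in both groups and the level was 2.34-fold lower (log2 fold change -1.22 ± 0.19 SE, edgeR adjusted p = 0.00793). The call was lost without *atwri1-1* replicate 3 (edgeR adjusted p = 0.0524), with nearly the same log2 fold change of -1.20. Its tandem neighbour *ACX3* (AT1G06290), the medium-chain oxidase, shares 88.8% of its aligned coding bases with *ACX6*. Of the 31-base stretches, 77.9% in *ACX3* and 94.4% in *ACX6* occur in no other counted transcript. The transcripts that share the rest were not identified. Because reads with more than 1 best place were dropped, the counts of this pair come from part of each transcript.

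*ACX3* had 24.9, 28.7 and 26.9 CPM in libraries labelled *atwri1-1* and 28.7, 60.8 and 54.8 CPM in WT. WT replicate 1 lay within the range of the libraries labelled *atwri1-1*, and the difference did not pass the test (log2 fold change -0.84 ± 0.27 SE, edgeR adjusted p = 0.105). Without that library *ACX3* was called lower (log2 fold change -1.11, edgeR adjusted p = 3.57e-04). With all 6 libraries its DESeq2 adjusted p was 0.0443, under the fold minimum (log2 fold change -0.83). The long-chain oxidase *ACX2* (AT5G65110) had 21.5, 22.1 and 23.8 CPM in libraries labelled *atwri1-1* and 32.3, 41.6 and 42.6 CPM in WT. Its groups did not overlap, and it was lower by less than the fold minimum (log2 fold change -0.79 ± 0.15 SE, edgeR adjusted p = 0.0197). Leaving out WT replicate 1 gave an edgeR adjusted p of 6.18e-04, and leaving out any of the other 5 libraries gave between 0.0646 and 0.0981.

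The 6 oxidases summed to between 160 and 173 CPM in libraries labelled *atwri1-1* and between 342 and 367 CPM in WT. Per transcript length, *ACX4* made up 28.9 ± 3.21% of oxidase transcripts in libraries labelled *atwri1-1* and 53.2 ± 4.28% in WT (SD, n = 3 each). *ACX1* made up 38.2 ± 2.60% in libraries labelled *atwri1-1* and 14.5 ± 0.63% in WT. The leading oxidase transcript was thus *ACX1* in all 3 libraries labelled *atwri1-1* and *ACX4* in all 3 WT libraries. The share of *ACX6* was 2.60 ± 0.13% in libraries labelled *atwri1-1* and 2.66 ± 0.09% in WT.

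**Figure D2:**
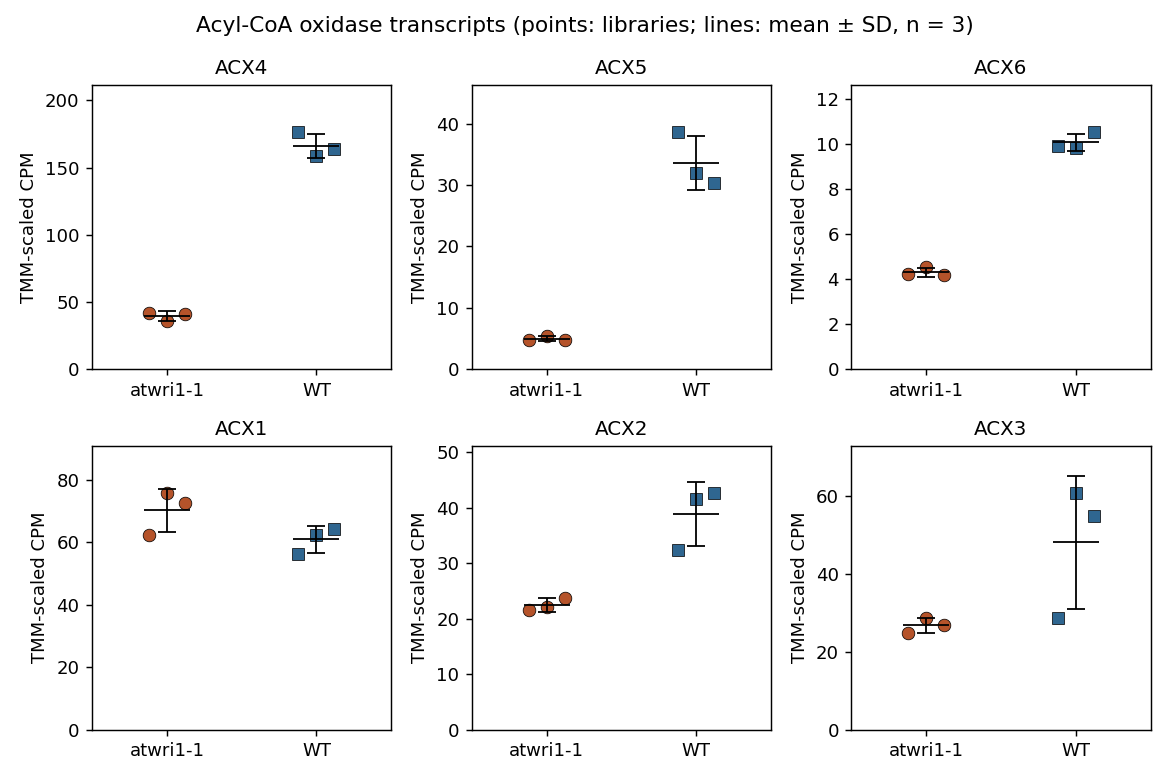
TMM-scaled CPM of the 6 acyl-CoA oxidase transcripts in each library, with *atwri1-1* to the left of WT in each panel; horizontal lines and bars give the mean ± SD of 3 libraries and every vertical axis starts at 0. *ACX4*, *ACX5*, *ACX6* and *ACX2* do not overlap between the groups, *ACX1* does, and *ACX3* overlaps through 1 WT library.

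Coding ends of oxidases that were called and of *ACX1*, which was not, are shown to let the import signals be compared. Each line gives the last 30 coding bases before the stop codon in TAIR10.1 (RefSeq), with the final 3 codons, which hold the PTS1, in capitals.
ACX4: agtttcaaaccggctacacgtAGCCGTCTC
ACX5: attaagcaacgcttccgctctGCCAAACTC
ACX1: cttcagcagcaacttcgtaccGCTAGGCTC
ACX6: tgggtcgaagccaacgcttggTCTTCACTT
The capitals of *ACX4* read serine, arginine and leucine, those of *ACX5* alanine, lysine and leucine, and those of *ACX1* alanine, arginine and leucine, all of which match the PTS1 pattern searched. Those of *ACX6* read serine, serine and leucine and do not match it. The signal was thus coded both by oxidase transcripts that fell and by *ACX1*.

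The hydration, dehydrogenation and thiolysis steps, and the auxiliary enzymes, showed no called gene in edgeR, DESeq2 or limma-voom, and 1 of these genes (*AIM1*) had an unadjusted edgeR p under 0.05. The multifunctional proteins hydrate the enoyl-CoA and dehydrogenate the hydroxyacyl-CoA. *AIM1* (AT4G29010), the more abundant of the 2 genes per length, had 176, 168 and 193 CPM in libraries labelled *atwri1-1* and 216, 241 and 283 CPM in WT. All 3 WT libraries were higher, without passing the edgeR test (log2 fold change -0.46 ± 0.15 SE, edgeR adjusted p = 0.0994). The DESeq2 adjusted p was 0.0488, under the fold minimum. Without WT replicate 1 the edgeR adjusted p was 0.00802, at a log2 fold change of -0.56. *MFP2* (AT3G06860) averaged 66.9 ± 1.76 CPM in libraries labelled *atwri1-1* and 63.2 ± 8.64 CPM in WT (log2 fold change 0.08, edgeR adjusted p = 0.747). The ratio of *AIM1* to *MFP2* per length was between 2.59 and 2.88 in libraries labelled *atwri1-1* and between 3.80 and 3.98 in WT. A stretch of the *AIM1* locus overlaps AT4G29000, and the counting did not use strand.

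The ketoacyl-CoA thiolases close the turn by releasing acetyl-CoA. *KAT2* (AT2G33150), the most abundant of the group per length and the main thiolase of seedlings, had 226, 236 and 264 CPM in libraries labelled *atwri1-1* and 211, 254 and 272 CPM in WT. The values interleaved and the log2 fold change was -0.02 ± 0.15 SE (edgeR adjusted p = 0.941). *KAT1* (AT1G04710) averaged 50.0 ± 1.80 CPM in libraries labelled *atwri1-1* and 50.4 ± 17.8 CPM in WT (log2 fold change -0.01, edgeR adjusted p = 0.983).

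*KAT5* (AT5G48880) averaged 79.2 ± 17.7 CPM in libraries labelled *atwri1-1* and 74.9 ± 47.9 CPM in WT, where replicate 1 had 130 CPM and the other 2 libraries 50.0 and 44.6 CPM (log2 fold change 0.08, edgeR adjusted p = 0.926). Without WT replicate 1 its log2 fold change was 0.74 (edgeR adjusted p = 0.0247), and with either other WT library left out it was below 0. The *KAT5* locus overlaps AT5G48870, so part of its signal cannot be assigned.

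Unsaturated fatty acids need auxiliary enzymes. *SDRB* (AT3G12800), a short-chain dehydrogenase/reductase gene and the most abundant member per length in both genotypes, had 196, 205 and 201 CPM in libraries labelled *atwri1-1* and 230, 192 and 222 CPM in WT. Its groups overlapped (log2 fold change -0.09 ± 0.13 SE, edgeR adjusted p = 0.682). *IBR10* (AT4G14430), an enoyl-CoA isomerase gene, averaged 37.3 ± 5.64 CPM in libraries labelled *atwri1-1* and 55.8 ± 28.9 CPM in WT (log2 fold change -0.58, edgeR adjusted p = 0.347). WT replicate 1 had 88.0 CPM, the highest of the 6 libraries.

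**Figure D3:**
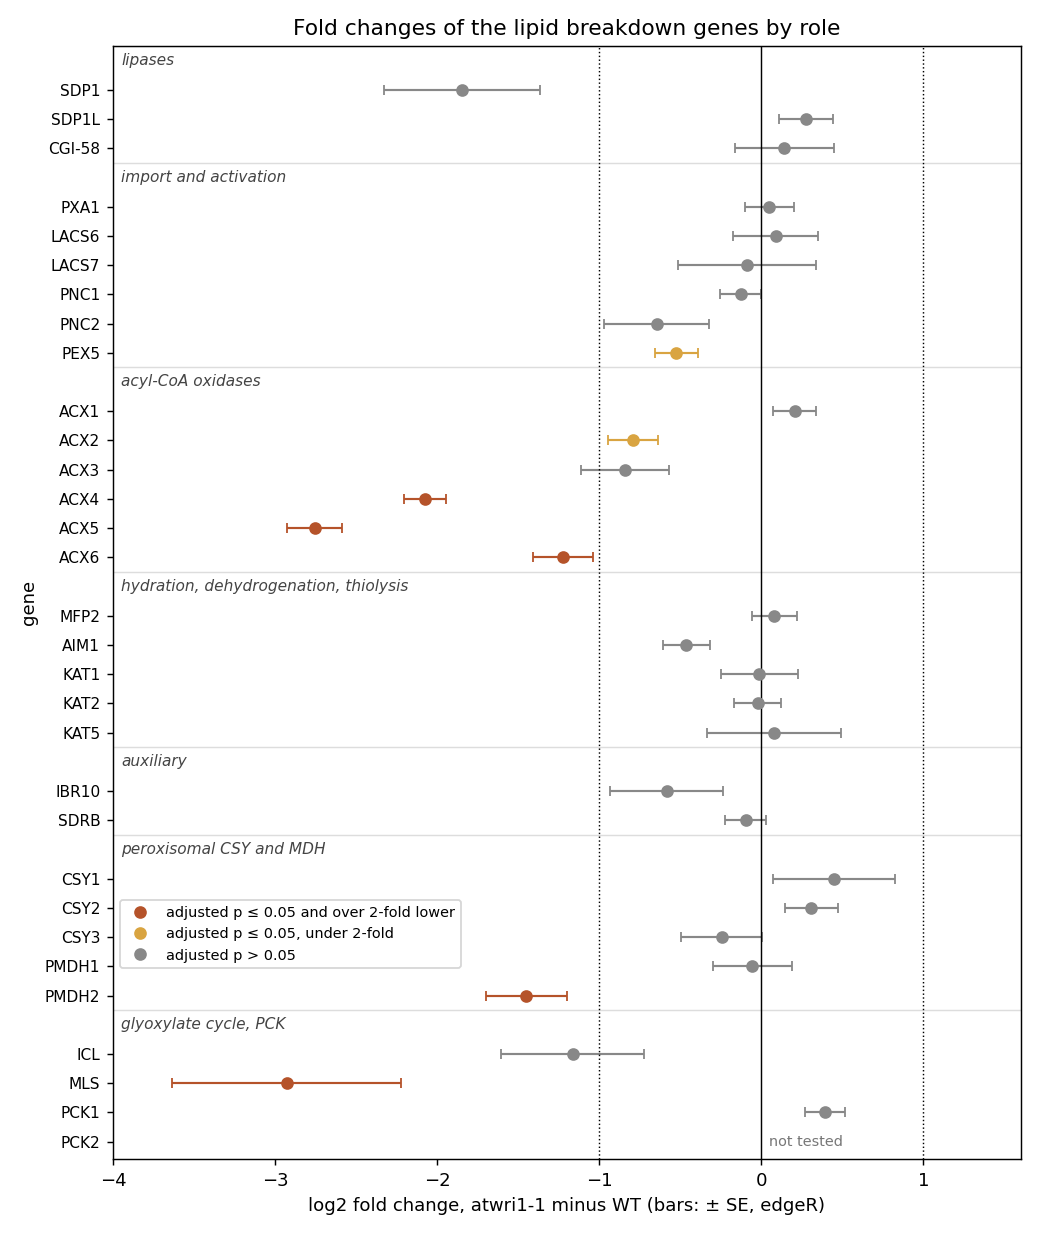
Log2 fold change of each tested gene (*atwri1-1* minus WT, horizontal axis) with bars of ± 1 SE from edgeR, in the same role order as the levels by library. Dotted lines mark a log2 fold change of 1 in either direction; the 5 called genes lie left of -1, *SDP1* and *ICL* lie there too without passing the test, and no gene lies beyond 0.45 to the right.

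Peroxisomal malate dehydrogenases reoxidize the NADH that beta-oxidation makes, and 1 of their 2 genes was called. *PMDH2* (AT5G09660, chr5:2993411-2995784, minus strand) had 11.7, 6.66 and 6.54 CPM in libraries labelled *atwri1-1* and 23.6, 21.4 and 22.9 CPM in WT. Every WT library was higher, and the means of 8.30 ± 2.95 CPM in libraries labelled *atwri1-1* and 22.6 ± 1.10 CPM in WT (SD, n = 3 each) gave a 2.72-fold lower level (log2 fold change -1.45 ± 0.25 SE, edgeR adjusted p = 0.0127). The call was lost without *atwri1-1* replicate 2 (edgeR adjusted p = 0.0678) and without *atwri1-1* replicate 3 (edgeR adjusted p = 0.0648).

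*PMDH1* (AT2G22780) averaged 54.1 ± 5.76 CPM in libraries labelled *atwri1-1* and 56.3 ± 17.6 CPM in WT (log2 fold change -0.06, edgeR adjusted p = 0.911). Per length, the level of *PMDH2* relative to *PMDH1* was between 0.150 and 0.333 in libraries labelled *atwri1-1* and between 0.445 and 0.882 in WT, with no overlap. Both code for a PTS2, shown here as the 9 codons of the signal from TAIR10.1 (RefSeq), with the fixed first and last pair of codons in capitals and the thiolase *KAT2* for comparison.
PMDH2: AGGATTgctaggatttcagctCATCTC
PMDH1: CGTATCgcgagaatctctgctCATCTC
KAT2: AGACAAcgcgttcttcttgagCATCTC
The signal starts at codon 10 in *PMDH2*, codon 6 in *PMDH1* and codon 7 in *KAT2*. In *PMDH1* and *PMDH2* the capitals read arginine and isoleucine, then histidine and leucine. In *KAT2* glutamine stands in place of isoleucine, so it matches only the wider of the patterns searched.

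Citrate synthases let acetyl-CoA carbon leave the peroxisome as citrate, and none of their 3 genes was called in edgeR, DESeq2 or limma-voom or had an unadjusted edgeR p under 0.05. *CSY2* (AT3G58750), the most abundant per length in WT and just below *CSY1* in libraries labelled *atwri1-1*, had 129, 116 and 123 CPM in libraries labelled *atwri1-1* and 79.2, 101 and 117 CPM in WT. The groups overlapped only at their edges (log2 fold change 0.31 ± 0.16 SE, edgeR adjusted p = 0.294). *CSY1* (AT3G58740) averaged 89.3 ± 37.4 CPM in libraries labelled *atwri1-1* and 65.3 ± 21.3 CPM in WT (log2 fold change 0.45, edgeR adjusted p = 0.507), and *CSY3* (AT2G42790) averaged 20.6 ± 2.03 CPM in libraries labelled *atwri1-1* and 24.3 ± 7.64 CPM in WT (log2 fold change -0.24, edgeR adjusted p = 0.589). *CSY1* and *CSY2* lie next to each other and share 88.4% of their aligned coding bases, and *CSY3* overlaps the antisense gene AT2G09400.

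Malate synthase, which joins acetyl-CoA to glyoxylate, had the largest log2 fold change of the tested members, and its call depended on single libraries. *MLS* (AT5G03860, chr5:1032099-1034973, minus strand) had 1.92, 4.39 and 7.44 CPM in libraries labelled *atwri1-1*, from 21, 89 and 66 reads, and 8.95, 44.8 and 49.7 CPM in WT, from 114, 507 and 576 reads. No WT library was as low as any labelled *atwri1-1*, though WT replicate 1 came near, and both groups were spread widely. The means were 4.58 ± 2.76 CPM in libraries labelled *atwri1-1* and 34.5 ± 22.2 CPM in WT (SD, n = 3 each), a 7.53-fold lower level (log2 fold change -2.93 ± 0.71 SE, edgeR adjusted p = 0.0422). Leaving out WT replicate 1 gave an edgeR adjusted p of 6.97e-04, and leaving out any of the other 5 libraries gave between 0.0917 and 0.159. The limma-voom adjusted p was 0.119.

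*ICL* (AT3G21720), the isocitrate lyase gene that supplies the glyoxylate, was scarce. It averaged 4.38 ± 1.82 CPM in libraries labelled *atwri1-1* and 9.66 ± 4.78 CPM in WT, with overlapping groups (log2 fold change -1.16 ± 0.44 SE, edgeR adjusted p = 0.154). Without WT replicate 1 it was called lower (log2 fold change -1.46, edgeR adjusted p = 0.0294). The level of *MLS* relative to *ICL* per length was between 0.560 and 1.62 in libraries labelled *atwri1-1* and between 1.75 and 5.77 in WT.

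Both glyoxylate cycle genes code for a PTS1, and their last 30 coding bases are given as for the oxidases.
MLS: gctcactaccctatcaatgtcTCAAGGCTC
ICL: actagccttgtggtcgccaagTCAAGAATG
The capitals read serine, arginine and leucine in *MLS* and serine, arginine and methionine in *ICL*.

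Phosphoenolpyruvate carboxykinase, which takes oxaloacetate towards sugar in the cytosol, had a positive fold change that was not called. *PCK1* (AT4G37870) had 248, 263 and 228 CPM in libraries labelled *atwri1-1* and 193, 189 and 180 CPM in WT. All 3 libraries labelled *atwri1-1* were above all 3 of WT (log2 fold change 0.39 ± 0.12 SE, edgeR adjusted p = 0.0920). The adjusted p was 0.0158 without WT replicate 1 in edgeR and 0.0117 in DESeq2, both under the fold minimum. Its paralogue *PCK2* (AT5G65690) had between 4 and 16 reads in libraries labelled *atwri1-1* and between 6 and 16 in WT, did not pass the low-count filter and was not tested.

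At the lipase step no gene was called, although *SDP1* (AT5G04040), the main oil body lipase of *Arabidopsis*, was several times more abundant in 2 of the WT libraries than in any labelled *atwri1-1*. It had 11.7, 9.96 and 9.70 CPM in libraries labelled *atwri1-1* and 13.4, 59.4 and 40.2 CPM in WT. The groups did not overlap, but WT replicate 1 lay just above the libraries labelled *atwri1-1* (log2 fold change -1.85 ± 0.48 SE, edgeR adjusted p = 0.0549). *SDP1* was called lower without WT replicate 1 (log2 fold change -2.26, edgeR adjusted p = 1.71e-04), without the low-count filter (edgeR adjusted p = 0.0440) and in DESeq2 (adjusted p = 0.00134). It was the only lipase gene with an unadjusted edgeR p under 0.05 or a DESeq2 call, and limma-voom called 0 of the 3.

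Its paralogue *SDP1L* (AT3G57140) had 17.1, 14.6 and 17.1 CPM in libraries labelled *atwri1-1* and 11.5, 14.4 and 14.4 CPM in WT. The groups were separate by a narrow margin (log2 fold change 0.28 ± 0.17 SE, edgeR adjusted p = 0.355). Per length, the level of *SDP1* relative to *SDP1L* was between 0.539 and 0.653 in libraries labelled *atwri1-1* and between 1.12 and 3.93 in WT. AT4G24160, a relative of the human lipase activator CGI-58 that RefSeq describes as an acyltransferase with lipase activity, was the most abundant of the 3 per length in libraries labelled *atwri1-1*, and *SDP1* was in WT. It had 9.60, 15.3 and 18.8 CPM in libraries labelled *atwri1-1* and 15.6, 14.9 and 9.14 CPM in WT, with full overlap (log2 fold change 0.14 ± 0.30 SE, edgeR adjusted p = 0.805).

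**Figure D4:**
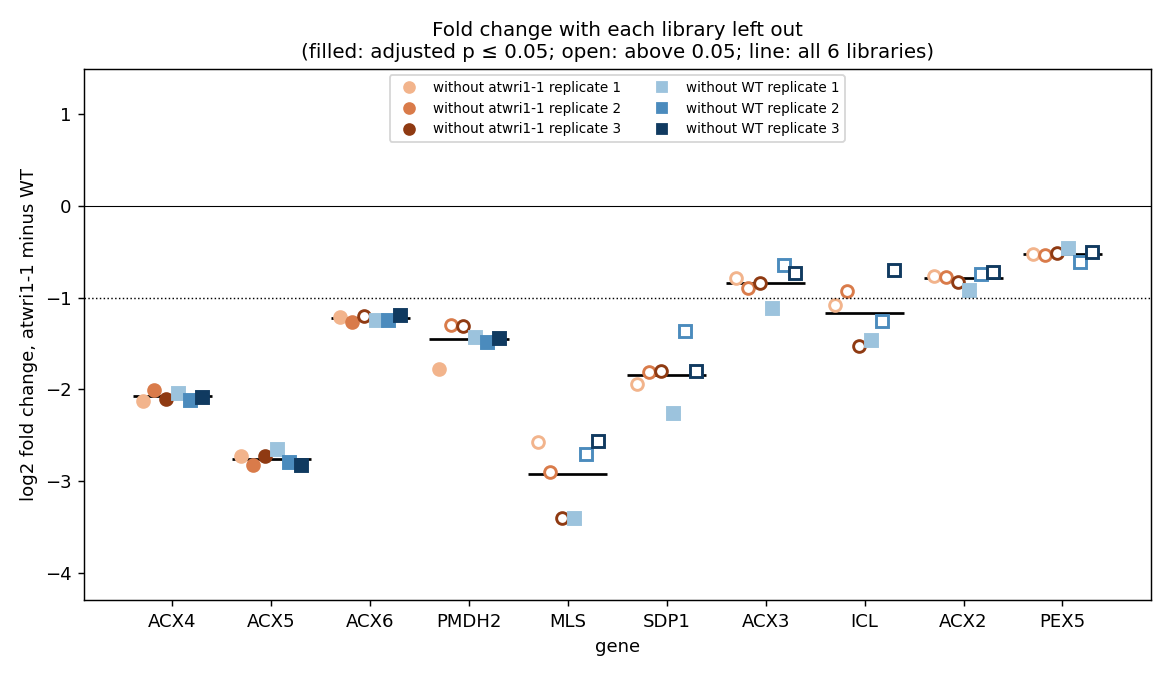
Log2 fold change (*atwri1-1* minus WT, vertical axis) of 10 members when each of the 6 libraries was left out in turn, with filled symbols where the edgeR adjusted p was at most 0.05 and a black line for the value from all 6 libraries. *ACX4* and *ACX5* are filled throughout, whereas *SDP1*, *ACX3*, *ICL*, *ACX2*, *PEX5* and *MLS* are filled only without WT replicate 1.

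Among genes for import and activation, none was called in edgeR, DESeq2 or limma-voom, and 1, *PEX5*, had an unadjusted edgeR p under 0.05. *PEX5* (AT5G56290), the receptor that reads PTS1, had 37.8, 38.5 and 37.1 CPM in libraries labelled *atwri1-1* and 59.5, 47.4 and 56.2 CPM in WT. Its values were almost identical within the libraries labelled *atwri1-1* and all below WT (log2 fold change -0.52 ± 0.13 SE, edgeR adjusted p = 0.0492). With the replicate number as a block the adjusted p was 0.0979, and without WT replicate 1 it was 0.0187. Leaving out any of the other 5 libraries gave an edgeR adjusted p between 0.0504 and 0.205.

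*PNC1* (AT3G05290), a carrier that brings ATP into the peroxisome and the most abundant gene of this step per length, had 27.5, 31.3 and 29.5 CPM in libraries labelled *atwri1-1* and 33.2, 32.6 and 30.7 CPM in WT. The groups overlapped (log2 fold change -0.13 ± 0.12 SE, edgeR adjusted p = 0.570). Its paralogue *PNC2* (AT5G27520) averaged 11.8 ± 1.82 CPM in libraries labelled *atwri1-1* and 18.5 ± 7.34 CPM in WT (log2 fold change -0.65, edgeR adjusted p = 0.264), and its edgeR adjusted p without WT replicate 1 was 0.00414, at a log2 fold change of -0.94. The transporter *PXA1* (AT4G39850), through which fatty acids enter the organelle, averaged 35.4 ± 5.47 CPM in libraries labelled *atwri1-1* and 34.3 ± 1.81 CPM in WT (log2 fold change 0.05, edgeR adjusted p = 0.869). The peroxisomal acyl-CoA synthetase genes, whose products activate fatty acids, were not called either. *LACS6* (AT3G05970) averaged 33.5 ± 3.45 CPM in libraries labelled *atwri1-1* and 31.5 ± 10.9 CPM in WT (log2 fold change 0.09, edgeR adjusted p = 0.864) and *LACS7* (AT5G27600) averaged 17.7 ± 8.82 CPM in libraries labelled *atwri1-1* and 18.6 ± 5.82 CPM in WT (log2 fold change -0.09, edgeR adjusted p = 0.921).

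Targeting signals were shared by members that fell and members that did not. The PTS1 pattern searched was serine, alanine or proline, then lysine or arginine, then leucine, methionine or isoleucine at the end of the protein. It was found in 10 of the 31 members and in 0.731% of 18050 tested coding transcripts. The PTS2 pattern, arginine, leucine or isoleucine, any 5 residues, histidine and leucine within the first 60 codons, was found in 7 members and in 0.155% of tested coding transcripts. With glutamine or alanine also allowed at the second position, a pattern chosen after seeing the first matches, it was found in 10 members, the additions being the thiolases *KAT1*, *KAT2* and *KAT5*. Of the 5 members called lower, *ACX4*, *ACX5* and *MLS* matched the PTS1 pattern, *PMDH2* the PTS2 pattern and *ACX6* neither. Only these patterns were searched, so a missing match does not show that a signal is absent. As the members were chosen for this pathway, these shares describe them and were not tested.

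The WRI1-binding AW Box (CNTNG, any 7 bases, CG) and the CNC Box (CNCCNCC) were searched on both strands in the 500 bases after each transcript start, since WRI1 is known to bind within genes. The AW Box was found in 15 of the 31 members (48.4%) and in 41.4% of 18051 tested genes, and the CNC Box in 16 (51.6%) and 50.9%. In the window from 250 bases before the start to 50 after it, the AW Box was found in 6 members (19.4%) and in 12.5% of tested genes, and the CNC Box in 3 (9.68%) and 14.6%. AW Box matches in the called oxidases are shown 5′ to 3′ on the strand that reads the motif (TAIR10.1), with the fixed bases in capitals.
ACX4, chr3:19229364-19229377, plus strand, before the start: CtTtGtctttgtCG
ACX4, chr3:19229042-19229055, plus strand: CtTcGtgatgatCG
ACX5, chr2:15000039-15000052, minus strand: CgTgGcgggaacCG
ACX6, chr1:1926795-1926808, plus strand: CcTaGaaatgtcCG
*ACX5* held a further AW Box match in the 500 bases after its start, while *MLS* and *PMDH2* held no AW Box in either window. *ACX1*, *ACX2* and *KAT2*, which were not called, also held AW Box matches. The CNC Box was found 1 time in *ACX4*, 2 times in *ACX6* and not in *ACX5* in the 500 bases after the start. A match describes these letters only, and the sequences were not tested for binding.

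Other genes of lipid breakdown, and genes linked to the glyoxylate cycle, that are not among the 31 were listed together for comparison. Of 20 such genes tested, 4 were called lower and none higher, and the median of their log2 fold changes was -0.08. The 4 were the glycerol kinase gene *GLI1* (log2 fold change -1.85, edgeR adjusted p = 0.00177), the acetoacetyl-CoA thiolase gene *ACAT1* (-1.77, edgeR adjusted p = 0.00263), the peroxisomal acetyl-CoA synthetase gene *ACN1* (-1.80, edgeR adjusted p = 0.00336) and the mitochondrial carrier gene *SFC1* (-1.72, edgeR adjusted p = 0.00719). For *SFC1* the edgeR adjusted p without *atwri1-1* replicate 3 was 0.0502. DESeq2 and limma-voom called none of the 20 higher, and 2 had an unadjusted edgeR p under 0.05 on that side.

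Peroxins, the proteins that build and supply the organelle, were not called among 20 tested genes other than *PEX5* (median log2 fold change -0.05). DESeq2 called 1 of them lower (*PEX7*, the PTS2 receptor gene, named after its values were seen, log2 fold change -1.07 and edgeR adjusted p = 0.12 here) and limma-voom 0. An unadjusted edgeR p under 0.05 was reached by 3, all with negative fold changes. Of these, *PEX11E*, also named after its values were seen, had an adjusted p of at most 0.05 under the fold minimum (log2 fold change -0.87, edgeR adjusted p = 0.0357). It averaged 27.9 ± 1.07 CPM in libraries labelled *atwri1-1* and 50.8 ± 13.5 CPM in WT. *PEX7* had 34.1, 31.1 and 32.1 CPM in libraries labelled *atwri1-1* and 114, 43.0 and 47.4 CPM in WT, the highest being WT replicate 1. The most abundant per length in both genotypes, *PEX13*, had 69.5, 69.9 and 82.1 CPM in libraries labelled *atwri1-1* and 65.4, 91.0 and 80.8 CPM in WT (log2 fold change -0.10, edgeR adjusted p = 0.733).

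The other large enzyme set of plant peroxisomes, that of photorespiration with the catalases, was also listed. Of its 9 genes, all tested, 6 were called lower. The median log2 fold change over the 9 was -1.61, beside -0.11 for the members, a difference that was not tested. The aminotransferase genes *AGT1* and *GGT2* had log2 fold changes of -6.02 and -4.65, *HPR1* and *GOX2* of -1.67 and -1.59, and the catalase genes *CAT2* and *CAT3* of -1.61 and -1.67 (edgeR adjusted p between 7.72e-05 and 0.0193 for the 6). The calls of *GOX2* and *CAT3* did not hold in every fit with a library left out, with edgeR adjusted p up to 0.0980 (*GOX2*, without *atwri1-1* replicate 2) and 0.0845 (*CAT3*, without *atwri1-1* replicate 2). The catalase gene *CAT1* did not differ beyond its spread (log2 fold change -0.05).

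Citrate synthase and malate dehydrogenase genes of other compartments gave 1 gene called lower and 1 called higher among 7 tested. An adjusted p of at most 0.05 was reached by 3, the addition being *cMDH1*, a cytosolic gene named after its values were seen. It was the most abundant of the list per length, at 331 ± 19.7 CPM in libraries labelled *atwri1-1* and 661 ± 57.5 CPM in WT. Its fall was just short of the fold minimum (log2 fold change -0.997, edgeR adjusted p = 0.00488). Between 1 and 2 genes of the list were called lower in the alternatives. The plastid gene *plMDH* fell (log2 fold change -1.19, edgeR adjusted p = 0.00368) and the cytosolic gene *cMDH2* rose (1.05, edgeR adjusted p = 0.00710), and *cMDH2* was under the fold minimum without *atwri1-1* replicate 3 (0.99) or without WT replicate 2 (0.93). Of their peroxisomal counterparts, *PMDH2* lay at -1.45 and *PMDH1*, the more abundant per length in both genotypes, at -0.06.

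**Figure D5:**
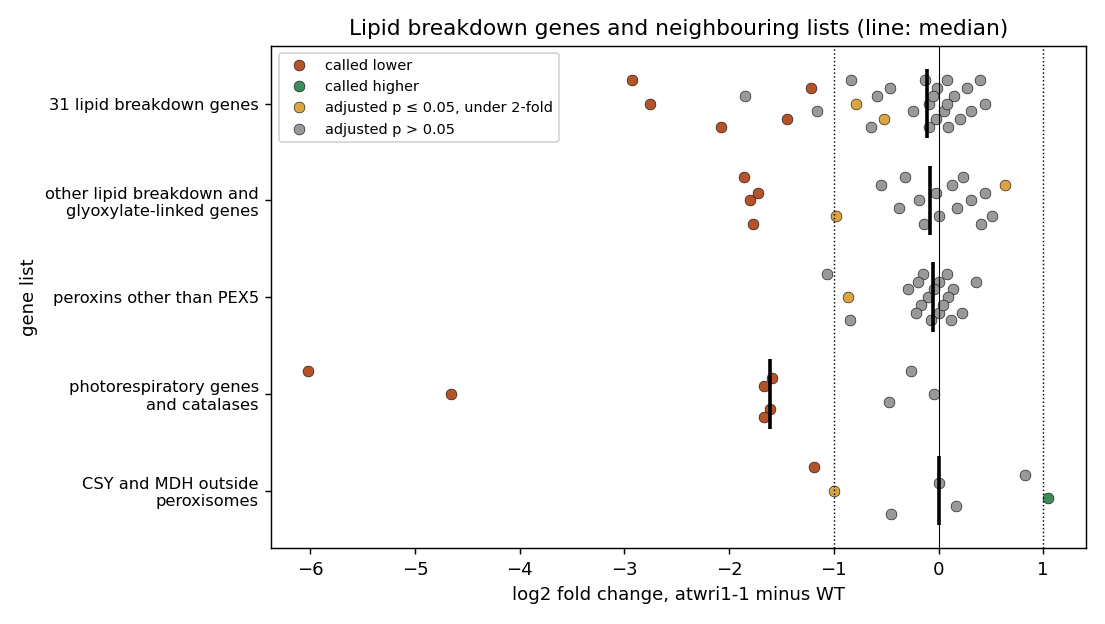
Log2 fold change (*atwri1-1* minus WT, horizontal axis) of each tested gene in the 31-gene set and in 4 neighbouring lists, 1 point per gene, with a vertical line at each list's median. Medians are -0.11, -0.08, -0.05, -1.61 and 0.01 from top to bottom, and most points of every list except the photorespiratory genes lie between the dotted lines at -1 and 1.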

How the data were processed

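RNA was measured in 3 libraries labelled *atwri1-1* and 3 WT libraries, which the labels call biological replicates. The deposited files hold unnormalized read counts, with 1 row per primary transcript of TAIR10. For these the authors used Bowtie 0.12.7 with up to 2 mismatches, left rRNA out beforehand, ignored strand and did not count reads that fitted more than 1 place equally well. They also deposited a table of TMM-normalized values (edgeR 3.10.5 per the labels), not used here. RNA was amplified before sequencing, so the floor in reads covers counting error only, whereas SD and SE also hold the spread between libraries.

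The counts were tested with edgeR 4.0.16 under R 4.3.3. The row naming no transcript was left out, 18241 transcripts passed filterByExpr, libraries were scaled by TMM, and glmQLFit and glmQLFTest compared *atwri1-1* with WT without a block. Adjusted p are Benjamini-Hochberg values over all tested transcripts. SE is the absolute log2 fold change over the square root of F. CPM are per 1000000 reads of tested transcripts with TMM scaling. Levels were divided by transcript length wherever genes were compared with each other. Self-tests on simulated counts preceded the fits.

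Alternatives were other filters, scalings and thresholds, DESeq2 1.42.0, limma-voom (limma 3.58.1), the replicate number as a block, and each library left out. Libraries sharing a number deviated together (correlations 0.273, 0.280 and 0.236, against -0.233 to 0.0228 for other pairs). The replicate numbers came from the sample titles, and the correlations describe this pairing without testing it. The title of WT replicate 3 gives 3 while its description ends in another digit, and the title was used.

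All 31 members are named. Values per library are given for members that were called, did not overlap, or were most abundant in their role. Other genes are named where called at 10 CPM or more, or as the most abundant of a list without calls, with exceptions stated. Members and lists were chosen with earlier results of these data known. Positions, coding ends and motifs were read from RefSeq TAIR10.1 with Python 3.11.15, where all 31 members matched by transcript identifier.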

Additional observations from a re-analysis of the deposited data

How the results depend on the processing

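The number of members called lower was between 2 and 8 with a library left out and 3 at an adjusted p of at most 0.01, and was within 1.5 times the main count in every other alternative. No alternative called a member higher. The number at an adjusted p of at most 0.05 was 11 in DESeq2 and between 2 and 15 with a library left out. Under the replicate block 5 members were called lower, as in the unblocked fit, with *ACX6* at an edgeR adjusted p of 0.0247 and *MLS* at 0.00332, and the block changed no member's call. The median log2 fold change of the members was 0.066 with library size only, which moved the median of all genes to 0.17, and -0.16 in limma-voom, and was between -0.17 and -0.12 with a library left out. Signs turned only in members that were not called. With library size only, log2 fold changes were 0.10 for *LACS7*, 0.049 for *PNC1*, 0.18 for *KAT1*, 0.14 for *KAT2*, 0.084 for *SDRB* and 0.10 for *PMDH1*. *KAT1* was at 0.039 in limma-voom and 0.044 under the replicate block. With a library left out, the ranges that crossed 0 were -0.073 to 0.37 for AT4G24160 (CGI-58), -0.085 to 0.13 for *PXA1*, -0.16 to 0.34 for *LACS6*, -0.46 to 0.27 for *LACS7*, -0.022 to 0.18 for *MFP2*, -0.18 to 0.31 for *KAT1*, -0.13 to 0.06 for *KAT2*, -0.18 to 0.74 for *KAT5* and -0.30 to 0.13 for *PMDH1*. The causes were not tested. Of 390 values of single members under an alternative, 350 kept their direction and their side of the threshold. Of the tested members, *MLS* and *SDP1* had the largest SE of the log2 fold change (0.71 and 0.48), and *PCK2* had too few reads to be tested.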
